A study of Mus musculus with 4 samples.

Results

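The cells described here are endocardial cells with Nfatc1, 81 of the 22662 cells of the series. They were chosen by their own counts of unique molecular identifiers (UMIs, each standing for 1 captured transcript molecule). A cell had to have at least 1000 detected genes and at most 10% mitochondrial UMIs, and at least 1 UMI of 5 or more of the 8 endothelial genes Cdh5, Pecam1, Kdr, Tek, Tie1, Emcn, Egfl7 and Esam. Haemoglobin had to stay below 5% of its UMIs and Etv2, a gene of early blood and endothelial progenitors, below 2 UMIs. These criteria, called the gate, were met by 702 cells, and the 81 members were the gated cells with 2 or more Nfatc1 UMIs. They were compared with the 453 gated cells with no Nfatc1 UMI, while the 168 gated cells with exactly 1 Nfatc1 UMI were kept apart.

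The 4 libraries, 1 per stage, came from Swiss Webster mouse embryos, staged by day after conception as E8.0 and E8.25 (the early libraries) or E9.5 and E10.5 (the later ones), and all had the genotype Mesp1Cre;Rosa26-GFPflox/+. In these embryos, Cre recombinase made from the Mesp1 gene of nascent mesoderm switches on a lasting GFP reporter, so that cells without Mesp1 ancestry are not labelled. GFP-positive cells that excluded DAPI were sorted from pooled embryos. The tissue taken was the upper part of the body for the early libraries, and the heart together with the pharyngeal apparatus for the later ones, so that stage and dissected region changed together. No stage was replicated.

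The endocardium is the endothelial lining of the heart. It receives blood flow, signals to the heart muscle through an extracellular matrix called the cardiac jelly, and gives rise to the valve cushions when some of its cells become mesenchymal. Nfatc1 is a transcription factor that enters the nucleus when calcineurin removes its phosphates, and its transcript has long been used to mark the endocardium of the early heart and of the forming valves, where it is needed for valve growth.

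Between 2954 and 8042 cells per library passed the limits on genes and mitochondrial UMIs, with median depths of 15611 to 35467 UMIs. Among all libraries, 271 cell barcodes occurred more than once, and 0 of the members had a barcode found in another library. Median depth in the E8.0 members was 21184 UMIs against 15817.5 in the gated cells without Nfatc1, in the E9.5 members 17735 against 14318, and in the E10.5 members 16630 against 18462. Doublets, droplets with more than 1 cell, were left in the main counts, and the highest Scrublet scores marked 1, 1 and 3 members.

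Members were found at 3 of the 4 stages. At E8.0, 11 of 136 gated cells were members (8.09%, 95% Clopper-Pearson interval 4.11 to 14.0%). At E8.25 the count was 0 of 74, with a Clopper-Pearson interval that reached up to 4.86% (3 counts of 74 would be 4.05%). At E9.5, 27 of 146 gated cells were members (18.5%, 12.6 to 25.8%), and at E10.5, 43 of 346 (12.4%, 9.14 to 16.4%). All intervals and limits of this kind cover counting error only. The intervals of E8.0, E9.5 and E10.5 all overlapped with each other, and that of E8.25 overlapped with that of E8.0. The stages cannot be tested against each other with 1 library each.

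Because a deeper cell more easily reaches 2 UMIs, the expected share was also computed after thinning every gated cell to 8000 UMIs and leaving out the 15, 1, 11 and 29 shallower cells of the libraries in order of stage. It was then 2.43% for E8.0, 0% for E8.25, 9.66% for E9.5 and 5.19% for E10.5. The order of the stages was the same as without thinning. As a share of all retained cells, the E8.0 members were 0.145% (0.0725 to 0.260%), those of E9.5 were 0.666% (0.440 to 0.968%) and those of E10.5 were 0.535% (0.387 to 0.720%).

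**Figure D1:**
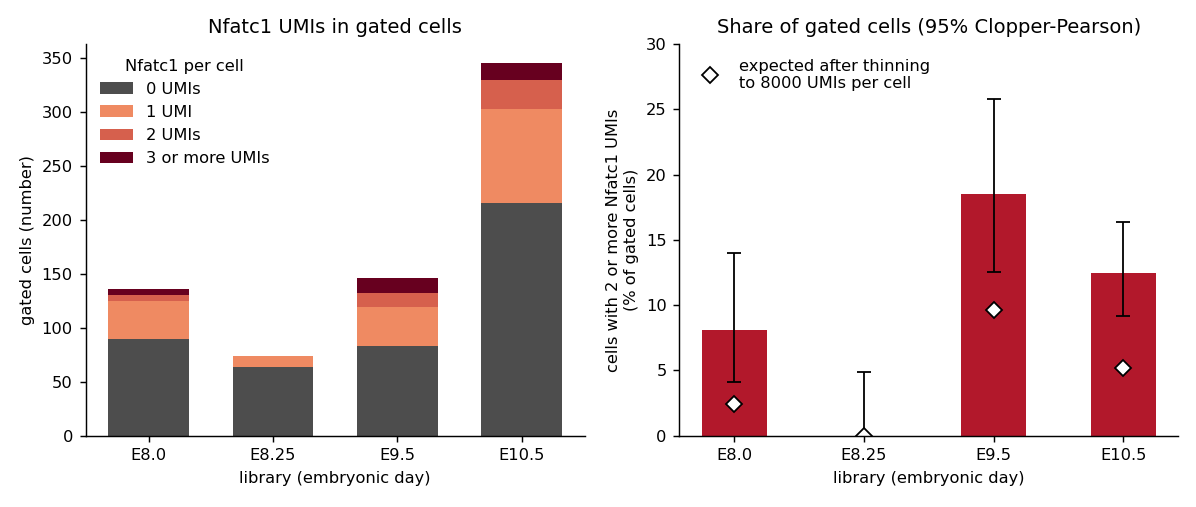
Left, number of gated cells in each library by their Nfatc1 UMIs (stacked colours). Right, share of gated cells with 2 or more Nfatc1 UMIs in percent, with bars for the 95% Clopper-Pearson intervals and diamonds for the share expected after thinning to 8000 UMIs per cell; the highest bar is E9.5 at 18.5%, and E8.25 has 0 of 74 cells.

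The values that chose the members were as follows. In 46 members the Nfatc1 count was just at the threshold of 2 UMIs, 16 members had 3 and 19 had 4 or more, up to 8 UMIs. No E8.0 member had more than 3. Just outside the threshold were the 168 gated cells with 1 UMI. By the gate, 13 members had 5 of the 8 endothelial genes, 24 had 6, 26 had 7 and 18 had all 8. With the other criteria met, 18 further cells with 2 or more Nfatc1 UMIs had only 4 of them. A further 65 cells with 2 or more Nfatc1 UMIs and 5 or more gate genes were left out for haemoglobin or Etv2.

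Of all 240 retained cells with 2 or more Nfatc1 UMIs, 81 were members, so that most lay outside the criteria. Besides those just given, 24 cells had 2 or 3 gate genes and 12 had 0 or 1, with the other criteria met. The remaining cells had fewer than 5 gate genes and also failed the limits on haemoglobin or Etv2. Among cells with none of the 8 endothelial genes, 2 or more Nfatc1 UMIs were seen in 0 of 1121 E8.0 cells (which allows up to 0.268%), 1 of 227 E8.25 cells, 0 of 1441 E9.5 cells (up to 0.208%) and 1 of 3911 E10.5 cells, at median depths of 15381, 29300, 15904 and 13930 UMIs. At least 1 Nfatc1 UMI was found in 0.833 to 3.96% of such cells. The shares with 1 or more Nfatc1 UMI in gated cells, again in order of stage, were 33.8, 13.5, 43.2 and 37.6%, at median depths of 16903.5, 23395.5, 16044.5 and 17984 UMIs. All 4 lay above the share in cells with none of the gate genes of the same library.

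The label was checked against markers that did not choose the cells. Levels are given as CPM, a gene's UMIs in 1000000 UMIs summed over the members of a library, in the order E8.0, E9.5 and E10.5. Npr3, the natriuretic clearance receptor and a common endocardial marker, stood at 36.3, 140.0 and 99.4 CPM. Hapln1, which crosslinks hyaluronan in the cardiac jelly, stood at 456, 909.9 and 864 CPM and was found in 80 of the 81 members, but also in 345 of the 389 gated cells without Nfatc1 of the same libraries. Npr3 was found in 47 members and in 174 of these other cells, so that the presence of either marker does not set the members apart. Gata4, Gata5 and Tbx20, described below, had UMIs in each of the 3 libraries. Cytl1, another gene of the endocardial list, had no UMI at E8.0 and stood at 22.6 and 10.52 CPM later.

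Among the gated cells, those with Nfatc1 had higher levels of the heart transcription factors Gata4, Gata5, Tbx20 and Hand2 and lower levels of the junction gene Cldn5 than those without. The call of Hand2 was lost with DESeq2 and with either other Nfatc1 threshold, and that of Gata5 with 4 or more Nfatc1 UMIs. That of Cldn5 was lost with DESeq2 and with 1 or more Nfatc1 UMIs, and its levels in both groups were near equal at E8.0. Counts were summed per library and group and compared with edgeR's quasi-likelihood test, with the library as a block. Of 7725 genes tested, 128 were higher in the cells with Nfatc1 at a Benjamini-Hochberg adjusted p below 0.05 (1.66% of genes tested) and 77 were lower (0.997%). Nfatc1 itself and 4 gate genes that were lower, Egfl7, Emcn, Kdr and Esam, are among these counts and are only described, since the rule used them. Of the other 127 higher genes, 92 were higher in all 3 libraries and 125 in both E9.5 and E10.5. Of the other 73 lower genes, 63 were lower in all 3 and 73 in both later libraries.

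These counts moved with the treatment of the data. DESeq2 called 40 higher and 9 lower, and without the library block 1 gene was higher, Nfatc1, and 0 were lower, with 180 and 160 at an unadjusted p under 0.05. Without the 11 members of E8.0 the counts were 217 and 133. Of the 12 named higher genes DESeq2 did not call Apobec2, Plcd1 and Hey2, and of the 12 lower ones it called Pf4 only. The 3 pairs of sums are the only replicates, each from another stage.

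Of the 11 tested genes of the endocardial list, 6 were higher in the members and 0 were lower, with a median log2 fold change of 1.04, against a median of -0.00 over all genes tested. Over all genes tested, 1.66% were higher and 0.997% lower, the shares that stand beside the count of every list. Gata4, a zinc finger factor of heart development (ENSMUSG00000021944, chr14:63198914-63271712, coordinates in GRCm38), had 48.4, 121 and 111 CPM in the cells with Nfatc1 and 7.05, 23.9 and 26.9 CPM in those without. Every member library was above every library without Nfatc1, at a log2 fold change of 2.22 ± 0.20 (SE), adjusted p = 2.37e-06. At E8.0, however, only 5 of the 11 members had Gata4 UMIs, and 1 of them held 41.7%. Tbx20, a T-box factor of heart chambers and valves (ENSMUSG00000031965, chr9:24720812-24774303), had 44.4, 70.0 and 341 CPM in the cells with Nfatc1 and 16.0, 26.1 and 54.0 CPM in those without. It was higher within each library, while the E10.5 cells without Nfatc1 lay above the E8.0 members (2.22 ± 0.22 (SE), adjusted p = 6.45e-06). Tbx20 had a log2 fold change of 1.44 without E10.5.

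Gata5, another GATA factor of the endocardial lineage, had 16.1, 80.3 and 66.6 CPM in the cells with Nfatc1 and 1.92, 25.4 and 26.1 CPM in those without (1.55 ± 0.25 (SE), adjusted p = 0.001). Hand2, a basic helix-loop-helix factor of the heart, had 24.2, 107 and 116 CPM in the cells with Nfatc1 and 19.2, 36.5 and 50.8 CPM in those without (1.21 ± 0.20 (SE), adjusted p = 0.0013), with overlapping 95% Poisson intervals at E8.0. Gata6 was higher in the members at E9.5 and E10.5 but not at E8.0, with 16.1, 78.2 and 129.8 CPM in the cells with Nfatc1 and 21.8, 29.8 and 60.2 CPM in those without (1.04 ± 0.22 (SE), adjusted p = 0.00896). These values put the members above the other gated cells for all 3 factors in both later libraries. For Hand2 the adjusted p was 0.102 with DESeq2, and with edgeR 0.0596 in cells with 4 or more and 0.0863 in cells with 1 or more Nfatc1 UMIs. For Gata5 it was 0.264 with 4 or more. For Gata6, the edgeR adjusted p was 0.257 without E10.5. DESeq2 did not call Gata6. In the E8.0 members, 1 cell held 83.3% of the Hand2 UMIs.

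Hapln1 had 379, 480.3 and 292 CPM in the cells without Nfatc1, below the members' values in each library (0.99 ± 0.15 (SE), adjusted p = 7.13e-04). Npr3 was not called, at 33.3, 90.2 and 71.5 CPM without Nfatc1 and a log2 fold change of 0.49 ± 0.18 (SE), adjusted p = 0.195. Nrg1, the neuregulin by which endocardium acts on the forming muscle, also missed the threshold at 1.52 ± 0.42 (SE), adjusted p = 0.0588. Its levels were 4.04, 103 and 31.6 CPM in the cells with Nfatc1 and 25.0, 15.7 and 10.6 CPM in those without. Nrg1 was thus lower at E8.0, where the members had 1 UMI of it, and higher later in the members. Foxp1, Cdh11 and Tmem100 of the same list were not called, at log2 fold changes of 0.37, 0.53 and -0.09.

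The 12 named genes with the largest increases in the members were Cxcl16, Apobec2, Igfbp7, Cdo1, Gata4, Tbx20, Mical2, Tnnt2, Lmna, Plcd1, Cthrc1 and Hey2. They were the called genes with the largest log2 fold changes, 1.83 to 3.04, among those higher in each of the 3 libraries and at 20 CPM or more. Cxcl16, a membrane-bound chemokine, had 12.1, 65.9 and 28.1 CPM in the cells with Nfatc1 and 7.05, 4.47 and 2.47 CPM in those without (3.04 ± 0.44 (SE), adjusted p = 4.12e-04). Igfbp7, a secreted protein that binds insulin-like growth factors, had 8.07, 92.6 and 98.2 CPM in the cells with Nfatc1 and 2.56, 29.1 and 12.3 CPM in those without (2.38 ± 0.27 (SE), adjusted p = 3.36e-05). Mical2, which oxidizes actin filaments, had 16.1, 51.5 and 92.4 CPM in the cells with Nfatc1 and 12.2, 13.4 and 17.8 CPM in those without (1.99 ± 0.28 (SE), adjusted p = 3.19e-04). At E8.0 the 95% Poisson intervals of both groups overlapped for these 3 genes, and at E9.5 and E10.5 they were apart.

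**Figure D2:**
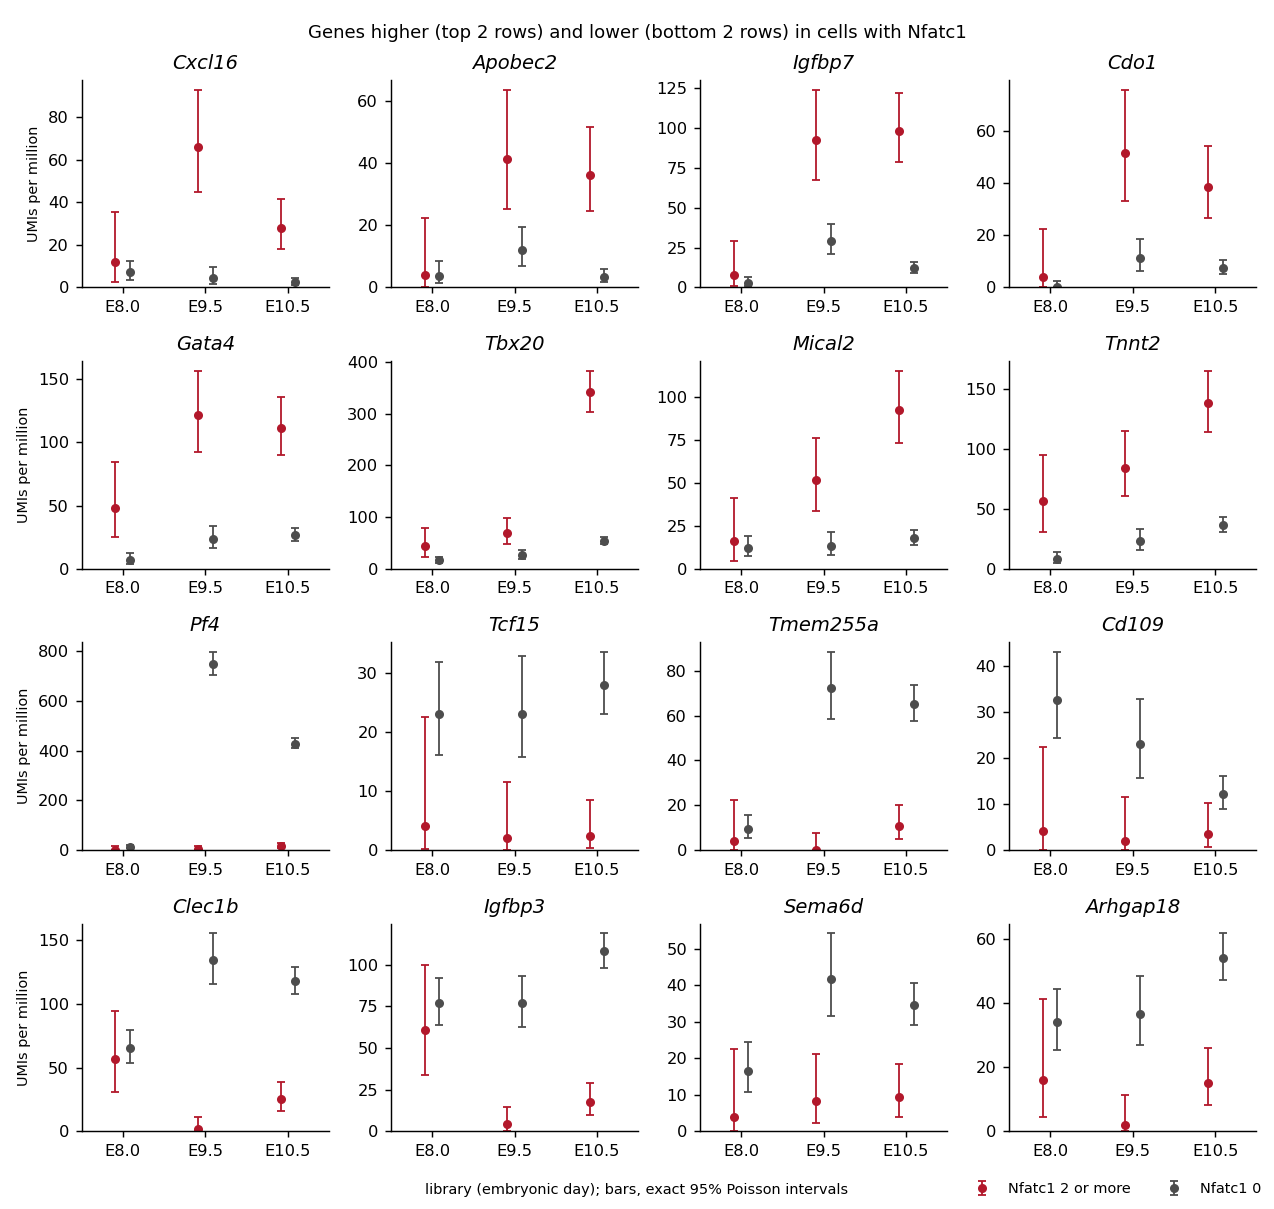
Levels in CPM (vertical axes, linear, from 0) at E8.0, E9.5 and E10.5 of the 8 named genes with the largest increases (top 2 rows) and the 8 with the largest decreases (bottom 2 rows), in summed members (red) and gated cells without Nfatc1 (grey), with exact 95% Poisson intervals. Gata4 rises from 7.05 to 48.4 at E8.0, and Pf4 reaches 747 in the grey point of E9.5 against 4.12 in the red one.

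Cdo1, which oxidizes cysteine, had 4.04, 51.5 and 38.6 CPM in the members, with 1 UMI behind the E8.0 value and 0 UMIs in the E8.0 cells without Nfatc1 (2.34 ± 0.35 (SE), adjusted p = 5.05e-04). Lmna, the nuclear lamin A and C gene, had 12.1, 96.8 and 45.6 CPM in the cells with Nfatc1 and 8.97, 16.4 and 13.8 CPM in those without (1.90 ± 0.29 (SE), adjusted p = 6.81e-04). Hey2, a Notch target and transcriptional repressor of the heart, had 16.1, 57.6 and 32.7 CPM in the cells with Nfatc1 and 9.61, 11.2 and 9.37 CPM in those without (1.83 ± 0.32 (SE), adjusted p = 0.00182). Apobec2, Plcd1 and Cthrc1 had log2 fold changes of 2.41, 1.87 and 1.84. Their E8.0 levels in the members, 4.04 to 8.07 CPM, rested on 1 or 2 UMIs each. Apobec2 had an edgeR adjusted p of 0.168 without E10.5. Leaving out 1 library ended the call of Mical2 (edgeR adjusted p 0.0927 without E10.5). Cxcl16 had a log2 fold change of 3.65 without E8.0. Igfbp7 had a log2 fold change of 1.68 without E10.5.

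A pair of genes outside this rule, named after their values were seen, had larger log2 fold changes than most of the 12. Pdlim3, an actin-associated protein (ENSMUSG00000031636, chr8:45885487-45919635), had no UMI in either group at E8.0, 247 and 483 CPM in the members at E9.5 and E10.5, and 60.4 and 42.7 CPM without Nfatc1 (2.92 ± 0.23 (SE), adjusted p = 7.91e-07). UMIs of it were found in 46 of the 81 members. Ccdc141 had no UMI in the E8.0 members, 144 and 87.7 CPM in the later members, and 2.56, 14.9 and 6.41 CPM without Nfatc1 (3.38 ± 0.32 (SE), adjusted p = 2.37e-06), a call that DESeq2 did not make (log2 fold change 2.61, adjusted p = 0.75). Pdlim3 had a log2 fold change of 2.06 without E10.5.

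Promoters were read for the genes that moved with Nfatc1, since it is a transcription factor. RefSeq windows of 250 bases upstream of a transcription start (GRCm38.p6) were available for 96 of the 127 higher and 50 of the 73 lower genes. The NFAT core TGGAAA, searched on both strands, was present for 18 of the 96 higher genes (18.8%) and 7 of the 50 lower genes (14.0%), against 17.1% of the 5978 tested genes with a window and 20.9% of all 27025 genes. The recognition letters of GATA factors such as Gata4, searched as AGATAA on both strands, were present for 11 of the 96 higher genes (11.5%) and 1 of the 50 lower genes (2%), against 6.74% of tested genes and 11.4% of all. The ends of the motifs can overlap, and a match is a description of these windows only. Tnnt2 and Plcd1 each had another window with 0 matches and were counted for the match in 1 window. The windows of the named higher genes that held a match are printed 5′ to 3′ on the gene's strand with the matches in capitals, for Tnnt2 at chr1:135836084-135836333 (plus strand, AGATAA read from the other strand), for Plcd1 at chr9:119093503-119093752 and for Apobec2 at chr17:48432729-48432978 (both minus strand, TGGAAA read from the other strand).
Tnnt2: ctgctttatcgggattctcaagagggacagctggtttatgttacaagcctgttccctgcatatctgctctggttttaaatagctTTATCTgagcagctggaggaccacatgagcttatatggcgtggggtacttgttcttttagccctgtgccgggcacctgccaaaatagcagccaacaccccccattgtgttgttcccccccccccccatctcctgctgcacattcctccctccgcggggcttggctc
Plcd1: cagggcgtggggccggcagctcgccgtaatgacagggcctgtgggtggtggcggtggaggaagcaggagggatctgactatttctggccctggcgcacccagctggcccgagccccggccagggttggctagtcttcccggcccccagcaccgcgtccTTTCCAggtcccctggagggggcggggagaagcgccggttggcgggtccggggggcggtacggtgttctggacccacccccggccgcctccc
Apobec2: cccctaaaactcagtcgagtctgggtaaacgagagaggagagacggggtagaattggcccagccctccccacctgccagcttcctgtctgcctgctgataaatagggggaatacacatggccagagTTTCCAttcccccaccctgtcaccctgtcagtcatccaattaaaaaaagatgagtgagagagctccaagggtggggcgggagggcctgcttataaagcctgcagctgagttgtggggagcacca

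The BMP and TGF-beta pathway, by which heart muscle and endocardium exchange signals for cushion formation, had 6 of 16 tested genes higher and 2 lower (median log2 fold change 0.27). Among receptors, Bmpr1a, a type I receptor of BMP, had 48.4, 41.2 and 49.1 CPM in the cells with Nfatc1 and 25.6, 10.4 and 21.2 CPM in those without (1.30 ± 0.26 (SE), adjusted p = 0.00685). Eng, the co-receptor endoglin, was higher in all 3 libraries at 0.65 ± 0.14 (SE), adjusted p = 0.0101. Acvrl1, the type I receptor of BMP9 and BMP10 in vessels, was lower at -1.81 ± 0.40 (SE), adjusted p = 0.0137, with 36.3, 4.12 and 7.01 CPM in the cells with Nfatc1 and 39.7, 43.3 and 36.8 CPM in those without. In the edgeR fit the 2 type I receptors moved in opposite directions, but DESeq2 called neither, and Acvrl1 was close in both groups at E8.0. The call of Bmpr1a was also lost with 4 or more and with 1 or more Nfatc1 UMIs (edgeR adjusted p 0.291 and 0.318). That of Acvrl1 was lost with 1 or more (0.524).

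Among the targets and feedback inhibitors, Smad6 had 36.3, 111 and 69.0 CPM in the cells with Nfatc1 and 18.6, 40.3 and 25.2 CPM in those without (1.39 ± 0.20 (SE), adjusted p = 4.88e-04). Id1, an immediate BMP target, had 343, 473 and 341 CPM in the cells with Nfatc1 and 189, 244 and 171 CPM in those without (0.94 ± 0.11 (SE), adjusted p = 4.20e-05), so that it was higher within each library by a like step. Smad7 (1.18) and Id2 (0.79) were higher as well, while Id3 was not called at 0.28 ± 0.08 (SE), adjusted p = 0.091. The ligand Bmp4 was lower at -1.19 ± 0.31 (SE), adjusted p = 0.0463, a call that 8 of 13 alternatives did not keep. Tgfb2, a ligand of the cushions, had 12.1, 74.1 and 46.8 CPM in the cells with Nfatc1 and 3.20, 26.8 and 34.0 CPM in those without and was not called (adjusted p = 0.0852). The edgeR adjusted p of Eng was 0.0534 without E9.5 and 0.16 without E10.5. For Smad7, the edgeR adjusted p was 0.224 without E10.5, and DESeq2 did not call Smad7. Bmp4 had an edgeR adjusted p of 0.665 without E10.5.

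Flow-responsive genes included Klf2, a transcription factor that shear stress induces in endothelium (ENSMUSG00000055148, chr8:72319062-72321654). Klf2 had 24.2, 1105 and 622 CPM in the cells with Nfatc1 and 19.9, 245 and 216 CPM in those without (1.75 ± 0.16 (SE), adjusted p = 2.37e-06). It was low in both groups at E8.0 and higher in all later sums, with the members above the other cells at both later stages. Heg1, a membrane partner of the CCM complex that stabilizes endothelial junctions, had 4.04, 124 and 60.8 CPM in the cells with Nfatc1 and 16.7, 24.6 and 30.1 CPM in those without (1.32 ± 0.31 (SE), adjusted p = 0.0233). Of the 8 tested genes of this list, 2 were higher, 0 were lower and the median log2 fold change was 0.68, and the CCM genes Krit1 and Ccm2 were not called at 0.14 and -0.24. Leaving out 1 library ended the call of Heg1 (edgeR adjusted p 0.557 without E9.5). DESeq2 called neither Klf2 nor Heg1.

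Klf4 and Wnt4 did not pass the filter on low counts, which covers the sums of all libraries and both groups, and were not tested. Klf4, a relative of Klf2, had 0 UMIs in the E8.0 members, and 30.9 (17.3 to 50.9) and 46.8 (33.4 to 63.7) CPM (95% Poisson intervals) in those of E9.5 and E10.5. Without Nfatc1 the values were 5.97 (2.58 to 11.8) and 5.43 (3.40 to 8.22) CPM. Wnt4, a secreted Wnt ligand, had 35.0 (20.4 to 56.0) and 57.3 (42.4 to 75.7) CPM in the later members and 5.22 (2.10 to 10.8) and 3.21 (1.71 to 5.48) CPM without Nfatc1. For both genes the intervals of the groups, which cover counting error only, were apart at both stages. At E9.5, however, 1 member held 10 of the 15 Klf4 UMIs (66.7%), so that the Klf4 level of that stage rests on 1 cell, and at E10.5 1 member held 16 of the 49 Wnt4 UMIs.

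The matrix of the cardiac jelly was represented by higher Hapln1, Vcan, Fn1, Fbn1 and Col3a1, 5 of 14 tested genes with 0 lower (median log2 fold change 0.07). Vcan, the proteoglycan versican, had 8.07, 49.4 and 117 CPM in the cells with Nfatc1 and 26.3, 17.2 and 26.9 CPM in those without (1.53 ± 0.32 (SE), adjusted p = 0.01), so that the E8.0 members lay below and the later members above the other cells. Fbn1, fibrillin, had 40.4, 115 and 111 CPM in the cells with Nfatc1 and 26.3, 32.8 and 49.3 CPM in those without (1.29 ± 0.20 (SE), adjusted p = 8.62e-04). Col3a1, a fibrillar collagen, had no UMI in either group at E8.0, and 132 and 235 CPM in the later members against 35.1 and 123 CPM (1.24 ± 0.21 (SE), adjusted p = 0.00182). Has2, the hyaluronan synthase that the cushions need, had 20.2, 18.5 and 18.7 CPM in the cells with Nfatc1 and 5.77, 8.20 and 6.91 CPM in those without and missed the threshold at 1.42 ± 0.40 (SE), adjusted p = 0.0726. The basement membrane genes Col4a1, Col4a2, Lama4, Lamb1, Lamc1 and Nid1 were not called, at log2 fold changes of -0.53 to -0.05. The edgeR adjusted p of Vcan was 0.812 without E10.5. DESeq2 called neither Vcan nor Fn1. Col3a1 had a log2 fold change of 1.93 without E10.5.

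Of the genes of the endothelial-to-mesenchymal transition, 2 of 9 tested were higher and 0 were lower (median 0.46). Msx1, a homeobox factor of the cushions, had 8.07, 132 and 78.3 CPM in the cells with Nfatc1 and 26.9, 46.2 and 13.8 CPM in those without (1.61 ± 0.32 (SE), adjusted p = 0.00685). Vim, the intermediate filament vimentin, was higher in all 3 libraries at 0.62 ± 0.11 (SE), adjusted p = 0.00301. Snai1, Zeb1, Zeb2 and Twist1, repressors that drive the loss of epithelial character, were not called, at 0.23, -0.23, -0.11 and 0.46. For Msx1, the edgeR adjusted p was 0.0889 without E10.5 and 0.169 with 1 or more Nfatc1 UMIs. DESeq2 did not call Msx1 (log2 fold change 1.02). At E8.0 the members lay below the other cells for Msx1, with UMIs in 1 member only.

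In the Notch pathway 1 of 9 tested genes was higher, Hey2, and 1 was lower, Mfng, a glycosyltransferase that modifies Notch receptors (-1.64 ± 0.31 (SE), adjusted p = 0.00341). Over all genes tested, 1.66% were higher and 0.997% lower. Notch1, the endocardial receptor, was not called at 0.43 ± 0.19 (SE), adjusted p = 0.365, with 76.7, 78.2 and 88.9 CPM in the cells with Nfatc1 and 81.4, 49.97 and 60.2 CPM in those without. Dll4, its ligand, had 40.4, 10.3 and 7.01 CPM in the cells with Nfatc1 and 32.7, 25.4 and 22.0 CPM in those without and was not called either (adjusted p = 0.348). Of the signals from endocardium to muscle, Ece1, which activates endothelin, and Igf2, a growth factor, were higher at 0.71 and 0.72, and Apln was lower at -2.22 ± 0.53 (SE), adjusted p = 0.0237. Ece1 had an edgeR adjusted p of 0.224 without E10.5, and DESeq2 called neither Ece1 nor Mfng. Leaving out 1 library ended the call of Apln (edgeR adjusted p 0.0557 without E8.0 and 0.0505 without E9.5). Apln had a log2 fold change of -3.54 without E10.5.

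None of the 11 tested genes of the calcineurin and NFAT pathway was called by edgeR, and the median log2 fold change was -0.05. With 1.66% of all genes tested called higher and 0.997% lower, a count of 0 in a list of this size is near those shares. Nfatc2 had 0 UMIs in the members of every library. Rcan1, a calcineurin inhibitor that NFAT induces, came nearest, with 12.1, 61.8 and 60.8 CPM in the cells with Nfatc1 and 15.4, 32.1 and 28.1 CPM in those without (0.91 ± 0.24 (SE), adjusted p = 0.0533). Ppp3ca, the catalytic subunit of calcineurin, had 52.5, 204 and 164 CPM in the cells with Nfatc1 and 57.0, 109.6 and 112 CPM in those without (0.58 ± 0.17 (SE), adjusted p = 0.0728). For both genes the members were lower at E8.0 and higher at E9.5 and E10.5.

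The 12 genes named for the largest decreases in the members were Pf4, Tcf15, Tmem255a, Cd109, Clec1b, Igfbp3, Sema6d, Arhgap18, Cldn5, Itga2b, Acvrl1 and Pfkp, with log2 fold changes from -5.51 to -1.79. Cldn5, the claudin of endothelial tight junctions (ENSMUSG00000041378, chr16:18776847-18778262), had 278, 18.5 and 171 CPM in the cells with Nfatc1 and 282, 508 and 617 CPM in those without (-1.82 ± 0.36 (SE), adjusted p = 0.00545). The 95% Poisson intervals of the groups overlapped at E8.0 and were apart at both later stages. Cldn5 UMIs were seen in 24 of the 81 members and in 278 of the 389 cells without Nfatc1 of the same 3 libraries. Cldn5 had a log2 fold change of -2.50 without E8.0 and -1.13 without E9.5.

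Pf4, the platelet factor of megakaryocytes, had 0, 4.12 and 16.4 CPM in the cells with Nfatc1 and 13.5, 747 and 428 CPM in those without (-5.51 ± 0.28 (SE), adjusted p = 1.62e-10). Its level without Nfatc1 rested on few cells, as 1 cell held 48.3% of the UMIs at E9.5 and another 46.1% at E10.5. Tcf15, a helix-loop-helix factor also found in fat and heart capillary endothelium, had 4.04, 2.06 and 2.34 CPM in the cells with Nfatc1 and 23.1, 23.1 and 27.9 CPM in those without (-3.30 ± 0.49 (SE), adjusted p = 5.05e-04). Tmem255a had 4.04, 0 and 10.52 CPM in the cells with Nfatc1 and 9.61, 72.3 and 65.1 CPM in those without (-3.21 ± 0.42 (SE), adjusted p = 1.57e-04), and its UMIs were spread over 135 cells without Nfatc1 against 5 members. Igfbp3, another binding protein of insulin-like growth factors, had 60.5, 4.12 and 17.5 CPM in the cells with Nfatc1 and 76.9, 76.8 and 108 CPM in those without (-2.14 ± 0.35 (SE), adjusted p = 0.00134), in contrast to the direction of Igfbp7. The edgeR adjusted p of Acvrl1 was 0.0999 without E10.5. For Itga2b, the edgeR adjusted p was 0.149 without E9.5. Pfkp had an edgeR adjusted p of 0.159 without E9.5 and 0.289 without E10.5. Pf4 had a log2 fold change of -4.73 without E9.5 and -7.42 without E10.5. Tmem255a had a log2 fold change of -2.52 without E9.5. Igfbp3 had a log2 fold change of -2.95 without E8.0. Acvrl1 had a log2 fold change of -2.70 without E8.0. Cd109 had a log2 fold change of -3.20 without E10.5. Clec1b had a log2 fold change of -2.88 without E8.0 and -1.57 without E9.5.

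Arterial genes had 0 of 10 tested higher and 2 lower, Acvrl1 and Gja5 (median log2 fold change -0.18). Gja5, connexin 40 of arteries, had 20.2, 0 and 9.35 CPM in the cells with Nfatc1 and 18.6, 61.9 and 36.0 CPM in those without (-2.25 ± 0.49 (SE), adjusted p = 0.0134), with 0 UMIs in the E9.5 members. Sox17, an arterial factor, was not called at -0.77 ± 0.22 (SE), adjusted p = 0.077. Venous and lymphatic genes had 0 of 8 higher and 2 lower, Aplnr and Stab1 (median -0.53). Aplnr, the apelin receptor of veins and sprouting endothelium, had 194, 18.5 and 37.4 CPM in the cells with Nfatc1 and 158, 148 and 192 CPM in those without (-1.50 ± 0.34 (SE), adjusted p = 0.0177). The called genes of both lists were lower in the edgeR fit, beside 1.66% higher and 0.997% lower of all genes tested. DESeq2 called none of them, and Gja5 and Aplnr were not lower in the E8.0 members. Nr2f2, a factor of venous identity, was not called at -0.37 ± 0.20 (SE), adjusted p = 0.518. Leaving out 1 library ended the call of Gja5 (edgeR adjusted p 0.0684 without E9.5). The edgeR adjusted p of Stab1 was 0.333 without E9.5. Gja5 had a log2 fold change of -2.90 without E8.0. Aplnr had a log2 fold change of -2.54 without E8.0 and -0.90 without E10.5.

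Among 16 endothelial transcription factors, Mef2c and Lmo2 were lower and 14 were not called, with a median of -0.34. Mef2c, a factor of heart and vessels, had 60.5, 32.9 and 58.5 CPM in the cells with Nfatc1 and 85.2, 166 and 149 CPM in those without (-1.47 ± 0.22 (SE), adjusted p = 5.23e-04). Lmo2, a partner of Tal1 and GATA factors, was lower at -0.64 ± 0.14 (SE), adjusted p = 0.015. Pan-endothelial genes beyond the gate had Eng and Clec14a higher and Cldn5 lower of 14 tested. Ramp2 (0.28), Plvap (-0.22), Icam2 (-0.30) and Cd34 (-0.37) were not called. Of the VEGF and angiopoietin genes, Apln was the 1 lower of 7 tested, and Flt1 stood at -0.16. For Lmo2, the edgeR adjusted p was 0.174 without E10.5. Clec14a had an edgeR adjusted p of 0.078 without E10.5, and DESeq2 called neither Clec14a nor Lmo2.

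**Figure D3:**
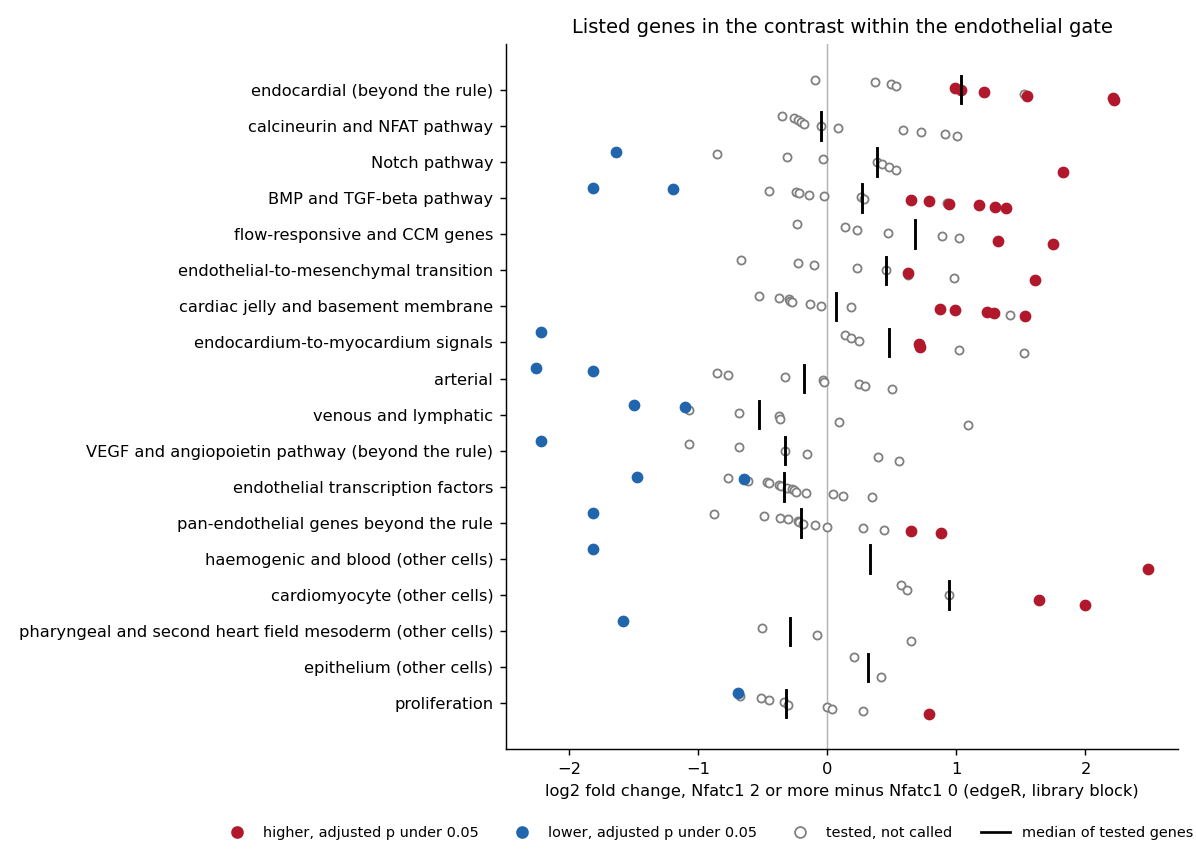
Log2 fold change between gated cells with 2 or more and with 0 Nfatc1 UMIs (horizontal axis, edgeR with the library as a block) for the tested genes of 18 lists, each gene 1 point. Filled points passed an adjusted p of 0.05 and black lines mark medians; the endocardial list has its median at 1.04 with 6 filled points to the right and none to the left, and the calcineurin and NFAT list has no filled point.

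For the genes used by the gate, the values are given without a test. Emcn, the endothelial sialomucin endomucin, had 52.5, 128 and 210.4 CPM in the cells with Nfatc1 and 58.9, 509 and 471 CPM in those without. Kdr, the main VEGF receptor, had 182, 96.8 and 120.4 CPM in the cells with Nfatc1 and 274, 192 and 212 CPM in those without. Pecam1, a junctional adhesion molecule, had 96.8, 144 and 166 CPM in the cells with Nfatc1 and 98.0, 126 and 153 CPM in those without, and Cdh5, VE-cadherin, 169, 167 and 178 CPM in the cells with Nfatc1 and 166, 264 and 231 CPM in those without. Emcn and Kdr were lower in the members of every library, though the Emcn values were close at E8.0, where 5 of the 11 members had any. The Poisson intervals for Pecam1 overlapped in each library.

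Of the cardiomyocyte genes, Tnnt2 and Tnni1 were higher in the members, and 3 of the 5 tested were not called. The summed level of the 11 listed cardiomyocyte genes ranged from 426 to 967 CPM in the members and from 161 to 475 CPM in the cells without Nfatc1 of the same libraries. Tnnt2 is cardiac troponin T (1.99 ± 0.20 (SE), adjusted p = 6.45e-06), and Tnni1 is slow skeletal troponin I, which the early heart also makes (1.64 ± 0.17 (SE), adjusted p = 7.61e-06). Tnnt2 had 56.5, 84.4 and 138 CPM in the cells with Nfatc1 and 8.33, 23.1 and 36.8 CPM in those without, and 1 cell held 92.9% of its member UMIs at E8.0 and another 49.2% at E10.5. Tnni1 had 36.3, 239 and 236 CPM in the cells with Nfatc1 and 12.2, 59.7 and 88.3 CPM in those without and was spread over 55 members, the highest holding 10.4% of the UMIs.

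The UMIs of other sarcomere genes, and with them the E10.5 sum, were concentrated in single members. At E10.5 the highest member held 95.8% of the UMIs of Ttn, 96.3% of Actc1, 86.7% of Myl4 and 84.6% of Myl7. When gated cells with 2 or more UMIs of 3 or more of Tnnt2, Ttn, Myl4, Tnni1 and Actn2 were left out, which removed 1 member at E8.0 and 2 at E10.5, the log2 fold changes were 2.12 for Tnnt2 (edgeR adjusted p = 1.70e-04) and 1.70 for Tnni1 (4.85e-06). The counts of called genes were then 133 higher and 75 lower.

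Of 11 haemogenic and blood genes, Gfi1 and Gata1 had 0 UMIs in the members, and Ptprc was seen in 1 E10.5 cell only. The summed blood list stood at 48.4, 20.6 and 67.8 CPM in the members and at 61.5, 99.9 and 36.8 CPM without Nfatc1. The members were thus lower at E8.0 and E9.5 and higher at E10.5, but the E10.5 sum was concentrated in single cells. There, 1 member held 32 Spi1 UMIs (97.0%), and all UMIs of Runx1 (9), Myb (5) and Ptprc (4) each lay in 1 member. Spi1, a myeloid factor, was called higher at 2.48 ± 0.63 (SE), adjusted p = 0.0371, but 1 E10.5 member held 82.1% of its UMIs, and without the E10.5 library its log2 fold change was 0.27 (edgeR adjusted p = 0.988). Of the 4 epithelial genes, Epcam and Cdh1 had 0 UMIs in the members. The keratin genes Krt8 and Krt18 were found in 7 and 6 of the 11 E8.0 members and were not called (0.21 and 0.41). The summed epithelial list stood at 125 CPM in the E8.0 members against 63.4 CPM without Nfatc1, and at 12.4 and 15.2 against 19.4 and 22.9 CPM in the later libraries.

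Of the epicardial genes, Wt1, Tbx18 and Upk3b had 1 UMI each over all members together, Upk1b had 0, and Tcf21 stood at 0, 24.7 and 24.6 CPM against 1.28, 4.47 and 5.67 CPM. The summed epicardial list reached 28.1 CPM in the members and 15.5 CPM without Nfatc1. Of 6 pharyngeal and second heart field genes, Tbx1 was lower at -1.58 ± 0.40 (SE), adjusted p = 0.0355. Leaving out 1 library ended the call of Tbx1 (edgeR adjusted p 0.133 without E9.5). The part of such transcripts in the gene differences was not tested.

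Proliferation genes had 1 of 10 tested higher and 1 lower (median -0.32), beside 1.66% higher and 0.997% lower of all genes tested. Ccna2, cyclin A2 of S and G2 phase, had 104.9, 55.6 and 71.3 CPM in the cells with Nfatc1 and 131, 118 and 112 CPM in those without (-0.69 ± 0.17 (SE), adjusted p = 0.035). Cdkn1c, the cell cycle inhibitor p57, had 517, 3769 and 4379.5 CPM in the cells with Nfatc1 and 344, 1621 and 3082 CPM in those without (0.79 ± 0.11 (SE), adjusted p = 2.09e-04). Mki67 and Top2a were not called at -0.51 and -0.30. The edgeR adjusted p of Ccna2 was 0.318 without E9.5 and 0.13 without E10.5, and DESeq2 did not call Ccna2.

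The gated cells with exactly 1 Nfatc1 UMI entered neither side of the comparison. At E9.5 and E10.5 their Gata4 level was 49.0 and 67.1 CPM, between the 23.9 and 26.9 CPM of the cells without and the 121 and 111 CPM of the members. Cldn5 was at 239 and 287 CPM in them, again in between. For Klf2 at E9.5 they had 234 CPM, against 245 CPM without Nfatc1.

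The members differed among themselves by their Nfatc1 count. At E9.5 and E10.5, 8 and 11 members had 4 or more Nfatc1 UMIs, and 19 and 32 had 2 or 3, at median depths of 18931 and 17467 against 17059 and 16572 UMIs. Of 6386 genes with 20 or more UMIs in these members, 10 were at least 4-fold higher (0.157%) and 9 at least 4-fold lower (0.141%) in both libraries in the cells with 4 or more. This rule was set after the values of Nfatc1 were known, its cells are not replicates, and no test was made.

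Klf4 had the largest rise by this rule, although 1 cell held 10 of the 13 UMIs behind its E9.5 value. It had 84.7 (45.1 to 145) CPM in the E9.5 members with 4 or more Nfatc1 UMIs and 6.02 (0.729 to 21.7) in those with 2 or 3, and 131 (90.8 to 183) against 10.1 (3.69 to 21.9) at E10.5. Klf2, which did not reach 4-fold at E9.5, stood at 1819 against 776 CPM and at 1392 against 287 CPM. Cells without Nfatc1 had 216 CPM at E10.5. Aqp1, a water channel, Ccl2, a chemokine, and Cdkn1a, the p53 target p21, were among the others that were higher. For Cdkn1a, however, 1 E9.5 member held 17 UMIs (56.7% of those in the members of that library), and at E10.5 the values rested on 4 against 1 UMIs.

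Among the genes that were lower in the members with most Nfatc1, Car4, a carbonic anhydrase anchored to the cell surface, had 0 UMIs in them at both stages against 36 and 38 UMIs in the members with 2 or 3. Of these, 1 cell held 26 at E9.5 (72.2%) and 1 cell 29 at E10.5 (76.3%), and only 2 and 5 members had any, so that the difference rests on 1 cell per library. Emcn is counted among the 9 although the gate used it, so its values are only described. It had 26.1 (7.10 to 66.8) against 175 (133 to 226) CPM at E9.5 and 54.0 (29.5 to 90.6) against 279 (238 to 324) at E10.5. Nr2f2 and Gja4, of veins and arteries, were also among the 9.

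Npr3 and Cdkn1c, chosen here after their values were seen, were highest at E10.5 in the members with 2 or 3 Nfatc1 UMIs. Npr3 stood at 71.5 CPM without Nfatc1, 131 CPM with 1 UMI, 138 CPM with 2 or 3 and 11.6 CPM with 4 or more. Cdkn1c stood at 3082, 5039, 5732 and 1272 CPM in the same order. With members redefined by 4 or more Nfatc1 UMIs, the fitted log2 fold change of Cdkn1c against cells without Nfatc1 was -0.42 (edgeR adjusted p = 0.535), the reverse of its direction in all members.

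**Figure D4:**
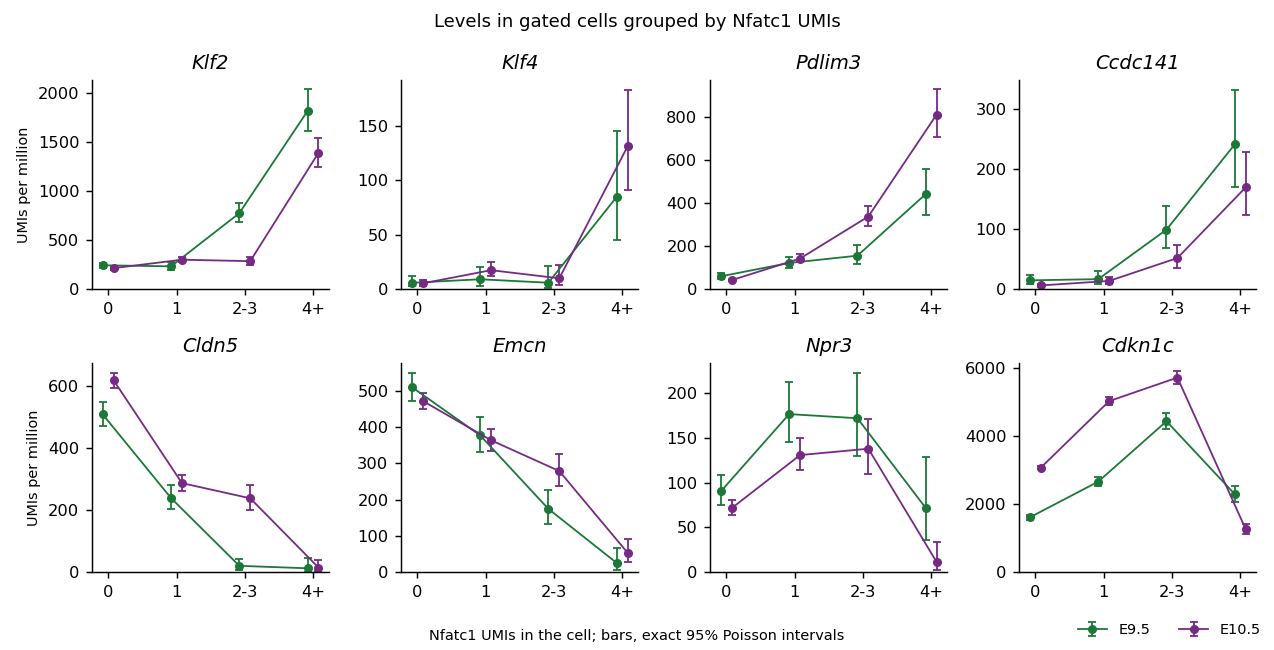
Levels of 8 genes in CPM (vertical axes, linear, from 0) in summed gated cells grouped by their Nfatc1 UMIs (horizontal axis: 0, 1, 2 to 3, and 4 or more), at E9.5 (green) and E10.5 (purple), with exact 95% Poisson intervals. Klf4 rises in the last group to 84.7 and 131, while Npr3 falls there to 71.7 and 11.6.

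Across stages the members were described by size alone, since each stage is 1 library and E8.25 had no member. Of 6855 genes with 20 or more UMIs in the members, 688 were at least 2-fold higher at both E9.5 and E10.5 than at E8.0 (10.0%) and 203 at least 2-fold lower (2.96%). At E8.0 a gene with 0 UMIs was set to 3 UMIs for this rule. The E8.0 sum held 247819 UMIs from 11 cells, so its low levels are loosely known.

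The 8 genes that rose most with stage were Pdlim3, Col3a1, Ccdc141, Tinagl1, Serpinb9b, Ednrb, Wnt4 and Creb5. All had 0 UMIs in the E8.0 members, which allows up to 12.1 CPM. Serpinb9b, a protease inhibitor, had 129.7 and 37.4 CPM in the later members and 8.20 and 2.96 CPM without Nfatc1. Ednrb, an endothelin receptor, had 70.0 and 78.3 CPM, and its later levels without Nfatc1 were 41.8 and 52.5 CPM after 4.48 at E8.0.

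The 8 genes that fell most were Cyp26a1, Phlda2, Clu, Slc2a3, Ptpre, Kcne3, Krt18 and Crabp1. Cyp26a1, which degrades retinoic acid, had 169, 0 and 5.85 CPM in the members and 147, 14.9 and 2.71 CPM without Nfatc1. Crabp1, which binds retinoic acid in the cytoplasm, had 104.9, 12.4 and 11.7 and 106, 14.9 and 34.8 CPM. Phlda2, an imprinted gene, had 84.7, 4.12 and 2.34 and 110.2, 1.49 and 2.96 CPM. All 3 were lower at the later stages in both groups of gated cells.

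By list, 8 of the 12 endocardial genes measured were 2-fold higher at both later stages in the members and 0 were lower, against the 10.0% of all genes. Of the flow-responsive genes 5 of 10 were higher, Klf2, Klf4, Heg1, Wnt4 and Thbd, and of the matrix genes 7 of 14. Of the arterial genes, 0 of 8 were higher and 2 lower, Dll4 and Hey1, and of the venous and lymphatic genes 1 of 8 was higher, Prox1, and 2 lower, Aplnr and Flt4. In the cells without Nfatc1, Gata4 also rose from 7.05 to 23.9 and 26.9 CPM, and Klf2 from 19.9 to 245 and 216 CPM. Higher later levels of these genes were therefore not limited to the members.

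**Figure D5:**
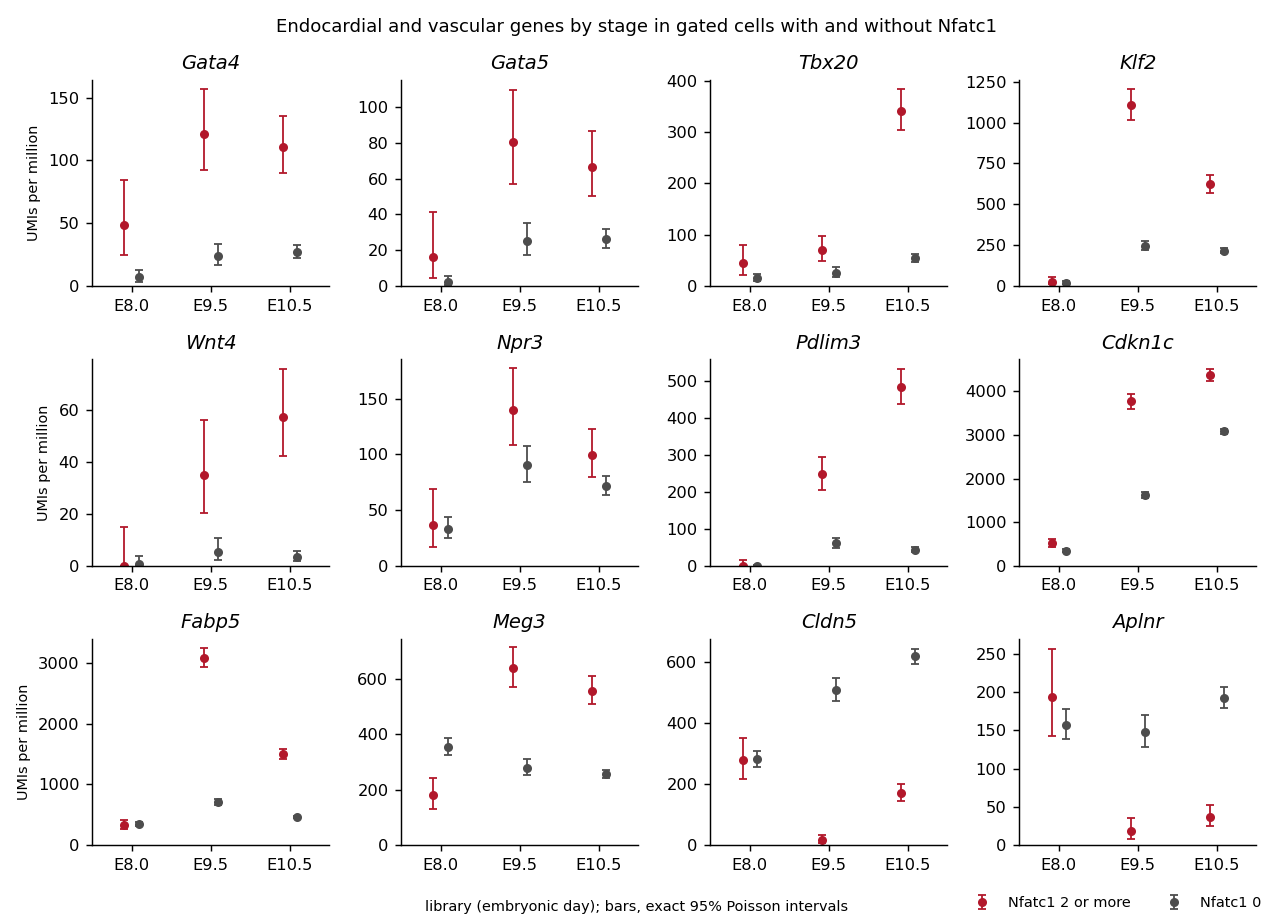
Levels of 12 genes in CPM (vertical axes, linear, from 0) by stage in summed members (red) and gated cells without Nfatc1 (grey), with exact 95% Poisson intervals. Tbx20 in the members reaches 341 at E10.5, and Cldn5 in the members drops to 18.5 at E9.5 while the grey points stand at 508 and 617 at the later stages.

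Between E9.5 and E10.5 the levels in the members are compared as log2 ratios of CPM with exact 95% intervals. Tbx20 was higher at E10.5 by 2.29 (1.77 to 2.84) in the members and by 1.05 (0.53 to 1.61) in the cells without Nfatc1. Cldn5 was higher by 3.20 (2.24 to 4.36) in the members and by 0.28 (0.16 to 0.41) without Nfatc1, and 1 E10.5 member held 62 of the 146 Cldn5 UMIs (42.5%). Klf2 was lower at -0.83 (-1.01 to -0.65) and Fabp5 at -1.04 (-1.15 to -0.93). For Gata4, at -0.13 (-0.61 to 0.36), and Hand2, at 0.11 (-0.39 to 0.63), the interval included 0.

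Edn1, the endothelin ligand, was lower at E10.5 in the members at -2.19 (-2.93 to -1.48) and stood at 0.33 (-0.20 to 0.90) without Nfatc1, while 1 E9.5 member held 43.5% of the Edn1 UMIs of that library. Nrg1 was lower at -1.71 (-2.44 to -1.002) in the members. Vcan was higher at 1.24 (0.59 to 1.95) and Sox9, a factor of cushion mesenchyme, at 1.16 (0.26 to 2.16). These intervals cover counting error in 27 and 43 cells of 1 library each, and cells differed more than that, as 1 member held 18.6% of the Klf2 UMIs at E9.5 and 19.5% at E10.5.

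Whether the difference between gated cells with and without Nfatc1 itself changed from E8.0 to the later stages was tested as an interaction in edgeR, with the library as a block. Of 7725 genes, 25 passed an adjusted p of 0.05 (0.324%), 19 with a difference that was more positive later and 6 with one that was more negative. The early side of this test was E8.0 alone, and 1 residual degree of freedom remained. DESeq2 called 4 and 0. Period and dissected region cannot be told apart.

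Fabp5, a fatty acid binding protein, had 339, 3078 and 1498 CPM in the cells with Nfatc1 and 347, 711 and 465 CPM in those without. Its difference was near 0 at E8.0 and wide later, with an interaction of 1.96 ± 0.22 (SE), adjusted p = 2.76e-06. Meg3, a long noncoding RNA of an imprinted locus, was lower in the E8.0 members and higher in the later ones (2.15 ± 0.25 (SE), adjusted p = 6.12e-06). Fn1, fibronectin, had 351, 873 and 975 CPM in the cells with Nfatc1 and 377, 374 and 426 CPM in those without (1.34 ± 0.21 (SE), adjusted p = 7.51e-04). Aplnr was the most significant in the other direction, with members above the other cells at E8.0 and below them later (-2.81 ± 0.37 (SE), adjusted p = 4.16e-05), followed by Myl3, whose E8.0 value rested on 10 UMIs with 8 of them in 1 cell, and by Cldn5 (-2.45 ± 0.45 (SE), adjusted p = 0.00618).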

How the data were processed

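Single-cell libraries of the 10x Genomics version 2 kit, which reads transcript ends and tags molecules, were aligned by the authors to mm10 with Cell Ranger 3.1.0 per the labels, and raw UMI counts per gene and cell were deposited for 27998 genes and 22662 barcodes. Members, gene lists and the comparison were chosen with earlier results of these data known, and the 4-fold rule within members after seeing values.

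Counts were summed per library and group (247819 to 855346 UMIs in members, 1340846 to 4054194 without Nfatc1) and fitted with edgeR 4.0.16 (TMM, filterByExpr, quasi-likelihood test, Benjamini-Hochberg adjustment), tested on simulated data first. DESeq2 1.42.0 was an alternative. E8.25, planned for all fits, had no member, so they rested on 3 libraries, and the early side of the stage rule was E8.0 alone. With the library as a block, p-values set the difference between the groups against how it varied over these 3 libraries, each of another stage. Named genes were the 12 largest and 12 smallest called log2 fold changes of the same sign in all libraries at 20 CPM or more, the 5 smallest interaction p-values in each direction, the 8 largest stage changes each way, and members of 19 lists. CPM are relative to all UMIs of a sum. Doublets were scored with Scrublet (scanpy 1.11.5), at 0.8% per 1000 cells. Coordinates and promoters are RefSeq's (GRCm38.p6, the mm10 build).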

Additional observations from a re-analysis of the deposited data

Results flagged for a closer look

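The contrast between gated cells with and without Nfatc1 differed between E8.0 and the later libraries by edgeR's test of the interaction (adjusted p) for 10 named genes. The difference was more positive later, in log2 units, for Fabp5 by 1.96 ± 0.22 (SE), adjusted p = 2.76e-06, Meg3 by 2.15 ± 0.25 (SE), adjusted p = 6.12e-06, Malat1 by 1.09 ± 0.14 (SE), adjusted p = 3.40e-05, Lgals1 by 1.24 ± 0.18 (SE), adjusted p = 1.17e-04 and Fn1 by 1.34 ± 0.21 (SE), adjusted p = 7.51e-04. It was more negative later for Aplnr by -2.81 ± 0.37 (SE), adjusted p = 4.16e-05, Myl3 by -6.86 ± 1.17 (SE), adjusted p = 0.00199, Cldn5 by -2.45 ± 0.45 (SE), adjusted p = 0.00618, Gng11 by -1.31 ± 0.29 (SE), adjusted p = 0.0384 and Kcne3 by -2.34 ± 0.53 (SE), adjusted p = 0.046. Only E8.0, with 11 members, stood for the early period, and with DESeq2 Fabp5, Meg3 and Malat1 of the 10 kept an adjusted p below 0.05. Kcne3 had 0 UMIs in the E9.5 members, and 1 E8.0 member held 8 of the 10 Myl3 UMIs of that library. With 1 library per stage, no group was large enough to look for a library standing apart.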

How the results depend on the processing

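The contrast called 128 genes higher and 77 lower. DESeq2 called 40 and 9, the fit without the library block 1 and 0, no filter on low counts 204 and 177, and members with 1 or more Nfatc1 UMIs 31 and 12. Members with 4 or more gave 116 lower genes, and leaving out the highest Scrublet scores 119. Leaving out 1 library gave 88 to 217 higher and 49 to 133 lower genes, the highest counts without E8.0, and without E9.5 the lower count was 49. By period, 19 and 6 became 4 and 0 with DESeq2, and the lower 6 became 16 without TMM, 13 in cells with 15000 or more UMIs and 12 with 6 or more gate genes. Requiring 50 UMIs left 310 of 688 stage genes higher and 72 of 203 lower. Thinning to 8000 UMIs moved the shares to 2.43% (E8.0), 9.66% (E9.5) and 5.19% (E10.5). The causes were not tested, except that filters and higher UMI limits change how many genes are tested. Over 70 single-gene results, 608 of the alternative values kept direction and call, 193 lost the call, and 1 reversed, Cdkn1c at -0.42 with 4 or more Nfatc1 UMIs. Gata4, Tbx20 and Igfbp7 lost the call only without the library block (adjusted p up to 0.874 in edgeR), but without E10.5 the log2 fold change was 1.44 for Tbx20 and 1.68 for Igfbp7. The contrast is paired, as both groups come from each library and the library is a block, and the calls depend on that pairing. The 11 members of E8.0 limit every statement on that stage.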
